A study of Mus musculus with 6 samples.

Results

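The Fanconi anaemia (FA) genes described here are Fanca, Fancb, Fancc, Fancd2, Fance, Fancf, Fancg, Fanci, Fancl and Fancm, whose proteins repair DNA crosslinks, including those made by aldehydes. They were taken by gene symbol, which found 10 rows among the 45777 genes of the deposited table, and all 10 passed the filter on low counts. The samples were total RNA from testes of wild-type mice fed an ethanol-containing LDC liquid diet for 16 weeks (3 libraries) or the control LDC liquid diet (3 libraries), after 5 days of acclimatization of both groups on the control diet. Each mouse received 10 ml of diet a day. No label gives the age or strain of the mice. Nor does any label tie a library to its own animal, so each p-value reflects how far these libraries scatter, and that scatter may be technical.

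An interstrand crosslink ties both strands of DNA together and stops a replication fork. Acetaldehyde, the first product of ethanol oxidation, and formaldehyde can make such lesions, and aldehyde dehydrogenases remove the aldehydes before they do. In the FA pathway Fancm brings a large core complex to the stalled fork, the core complex attaches ubiquitin to the Fancd2-Fanci pair (the ID2 complex), and the marked pair clamps onto DNA and allows nucleases to unhook the crosslink, after which translesion polymerases and homologous recombination restore the strands. The core complex is built of a Fanca-Fancg-Faap20 part, a Fancb-Fancl-Faap100 part that holds the ubiquitin ligase Fancl, and a Fancc-Fance-Fancf part that presents the substrate. Mice that lack FA genes lose germ cells and are often infertile, and in meiosis several FA proteins gather on the sex chromosomes of spermatocytes.

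Total counts ranged from 38935654 to 47420249 per library. The ethanol totals lay below all control totals except in ethanol library 2 (43399317), which just passed control library 3 (43389811; exact two-sided permutation test, n = 3 per diet, p = 0.2; 3 against 3 allows no p under 0.1, so this does not show equal depth). All 14 spermatocyte markers, all 14 Sertoli cell markers and all 10 markers of elongating spermatids passed the filter, against 1 of the 6 epididymis markers, of which Lcn5 was at 0 in every library. Of 25073 genes tested, 0 passed an adjusted p of 0.05 (quasi-likelihood F-test of edgeR, Benjamini-Hochberg adjustment), a background of 0%, and the lowest adjusted p was 0.0515. An unadjusted p under 0.05 was reached by 3343 genes, or 13.3%, 7.45% higher and 5.89% lower with ethanol. DESeq2 called 355 genes and limma-voom 5.

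None of the 10 FA genes passed the test over all genes, and the lowest adjusted p among them was 0.294 (edgeR). DESeq2, which gave Fancb, Fance and Fancf no adjusted p, and limma-voom called 0 of them as well. Between the diets Fanci differed by -12.6%, Fancc by -9.86% and Fancb, from very few reads, by 60.9%. In bulk tissue, fewer cells of a type and less RNA per cell cannot be told apart. At an unadjusted p under 0.05 there were 2 members, Fanci and Fancb, against the background of 13.3%. The 3 libraries of one diet lay wholly above the other for 3 members, Fanci and Fancc lower and Fancb higher. On TMM-scaled counts 18.8% of all tested genes did so, 9.76% higher and 9.01% lower. The log2 fold change was below 0 for 8 of the 10 members and for 48.5% of all tested genes, with medians of -0.07 and 0.0065; the signs of Fance, Fancf and Fancm among the 8 turned on another scale or without a single library.

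Promoter sequences are shown here for the 3 members whose libraries separated by diet on counts, where 18.8% of all tested genes did so. They are the 250 bases before the start set for each RefSeq promoter window on GRCm38.p6, 5′ to 3′ on the gene's strand, in lower case. That start is not always the first base of the gene's annotated span. Capitals mark matches on either strand to the motifs searched, which were E2F (TTCCCGC or TTGGCGC), the CCAAT box (CCAAT), the GC box (GGGCGG), NRF1 (GCGCATGC), ETS (CCGGAAG), MYB (TAACNG) and CRE (TGACGTCA). The window of Fanci lies at chr7:79392088-79392337 on the plus strand and that of Fancb at chrX:164980342-164980591 on the plus strand. That of Fancc, at chr13:63431746-63431995 on the minus strand, lies inside the annotated span of the gene. The RefSeq span of Fanci begins at 79392312 and that of Fancb at 164980480, so both windows end inside the gene. The GC box of Fancb lies in that inner part.
Fanci: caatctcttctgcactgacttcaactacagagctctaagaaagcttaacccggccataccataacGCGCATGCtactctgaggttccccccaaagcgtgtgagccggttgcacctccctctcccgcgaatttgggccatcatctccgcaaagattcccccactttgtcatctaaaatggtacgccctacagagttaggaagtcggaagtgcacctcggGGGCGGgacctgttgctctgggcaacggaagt
Fancc: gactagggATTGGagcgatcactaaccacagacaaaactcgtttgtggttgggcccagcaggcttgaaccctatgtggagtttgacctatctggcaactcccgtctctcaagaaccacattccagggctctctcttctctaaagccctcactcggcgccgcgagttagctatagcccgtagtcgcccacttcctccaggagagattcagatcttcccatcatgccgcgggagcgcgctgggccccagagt
Fancb: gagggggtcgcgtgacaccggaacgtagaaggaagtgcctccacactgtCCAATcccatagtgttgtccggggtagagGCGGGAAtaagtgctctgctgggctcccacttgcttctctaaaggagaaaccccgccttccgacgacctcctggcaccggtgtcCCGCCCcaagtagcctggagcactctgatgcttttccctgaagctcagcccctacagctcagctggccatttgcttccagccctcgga

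A window was at hand for 9 of the 10 members, and Fancd2 was the one without. No motif occurs in all 3 sequences. Fanci holds NRF1 and a GC box, and Fancc only a CCAAT box, near the first base of its printed window. Fancb holds a CCAAT box, an E2F match and a GC box. Over the 9 windows, E2F letters occurred in 4 (Fancb, Fancf, Fancg and Fancm), against 5.62% of the 32851 promoter windows of the reference. The CCAAT box occurred in 6 of 9 against 33.8%, the GC box in 5 against 32.7%, NRF1 in Fanci and Fancm against 2.26%, and ETS in Fance alone against 6.91%. Fancl held none of the motifs. MYB letters occurred in 0 of 9, against 19.8% of all windows, and CRE letters in 0 of 9, against 1.55%. In Fancf 1 CCAAT match overlaps the E2F match. E2F factors drive genes of DNA replication, NRF1 and ETS factors bind many housekeeping promoters, and a match here is a description of letters and not a site of binding.

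Levels can be compared between genes only per length, so they are given in TPM (transcripts scaled by length to a fixed library sum). Fancg, a scaffold of the core complex, and Fancd2, the ubiquitin acceptor, stood highest, with means over the 6 libraries of 36.8 and 32.9 TPM. Fancl followed at 20.5 TPM, Fanci at 15.9, Fancc at 11.5, Fanca at 8.52, Fancm at 5.90 and Fance at 3.36 TPM. Fancf, at 1.03 TPM, and Fancb, at 0.364 TPM, were the lowest, so that the highest member lay 101-fold above the lowest. Ranges over the 6 libraries overlapped only between the neighbours Fancg (31.5 to 42.8 TPM) and Fancd2 (29.8 to 35.6), and between Fancc (9.69 to 12.8) and Fanca (7.19 to 10.4). At every other step in this order the ranges did not overlap. Among protein-coding genes of the table Fancg ranked at percentile 81.8, Fancm at 54.4 and Fancb at 26.7.

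**Figure D1:**
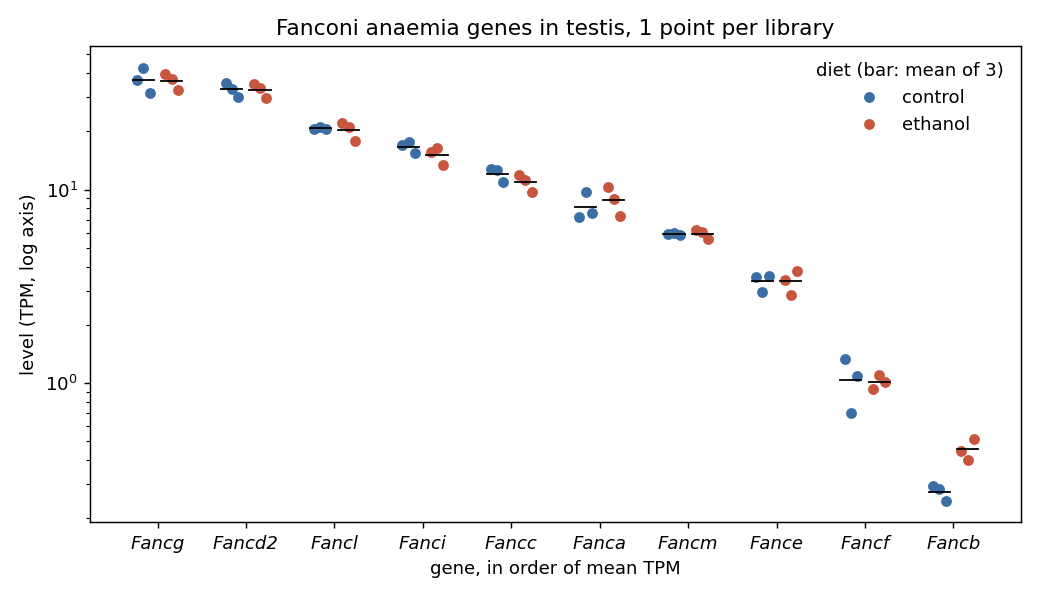
Level of each FA gene in TPM (log axis), 1 point per library, control in blue and ethanol in red, with a bar at the mean of the 3 libraries of a diet. The genes span from about 36.8 TPM for Fancg down to 0.364 TPM for Fancb, and Fancb is the only gene whose red points all lie above its blue points.

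Partner subunits that sit side by side in the core complex differed widely in RNA level. In the Fancb-Fancl-Faap100 part, Fancl stood at 20.7 ± 0.40 TPM in controls (SD, n = 3) and Faap100, a scaffold of that part, at 32.6 ± 3.22 TPM, while Fancb stood at 0.275 ± 0.025 TPM. In the Fanca-Fancg-Faap20 part, Fancg stood at 37.0 ± 5.63 TPM, Fanca at 8.17 ± 1.34 TPM and Faap20, a small ubiquitin-binding subunit, at 4.42 ± 0.52 TPM. The Fancc-Fance-Fancf part ran from Fancc at 12.1 ± 1.01 TPM through Fance at 3.36 ± 0.34 TPM to Fancf at 1.04 ± 0.32 TPM. Fancb, Faap20 and Fancf were the lowest subunits of their parts. Fancm, the translocase that anchors the complex, stood at 5.88 ± 0.082 TPM, near its partner Faap24 at 4.72 ± 0.94 TPM. Cenps and Cenpx, which form a histone-fold pair with Fancm, stood at 14.0 ± 1.08 and 16.4 ± 0.50 TPM.

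Fancm, the largest member with 2020 residues, had the log2 fold change closest to 0. It was at 24.7, 23.3 and 24.8 CPM (counts scaled to a common library size, with TMM factors) in control libraries 1, 2 and 3 and at 23.6, 24.8 and 23.5 CPM in ethanol libraries 1, 2 and 3. The libraries of the diets were interleaved, and the log2 fold change was -0.02 (SE 0.08, 95% interval -0.18 to 0.15, edgeR adjusted p = 0.947). Its sign turned with total counts alone and on both TPM scales, to at most 0.0084.

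Fanca, the largest subunit of its part of the core complex, was at 19.1, 22.5 and 19.3 CPM on control diet and 24.1, 22.1 and 20.3 CPM on ethanol. The highest value was that of ethanol library 1, and control library 2 lay within the ethanol range. Besides that of Fancb, its log2 fold change was the only one above 0, at 0.13 (SE 0.10, 95% interval -0.09 to 0.34, edgeR adjusted p = 0.62). Fancg, its direct partner, was at 58.6, 63.7 and 52.0 CPM on control diet and 56.8, 56.2 and 52.7 CPM on ethanol, a log2 fold change of -0.07 (SE 0.08). By counts the Fancg to Fanca ratio was 3.06, 2.83 and 2.69 in controls and 2.35, 2.54 and 2.60 with ethanol, without overlap (exact two-sided permutation test, n = 3 per diet, p = 0.1, the smallest possible; 0.167 adjusted over 5 pairs of members). By TPM the same ratio was 4.55 ± 0.50 and 4.17 ± 0.35 and overlapped (exact permutation p = 0.5, adjusted 0.75). The length implied by counts and FPKM ranged from 5067 to 5731 bases for Fanca between libraries, a spread of 13.1%, and by 0.83% for Fancg.

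Fancl, the ubiquitin ligase of the pathway, was at 19.2, 18.8 and 19.8 CPM on control diet and 19.0, 19.1 and 17.0 CPM on ethanol. Ethanol library 3 was the lowest and the other ethanol libraries lay within the control range, with a log2 fold change of -0.06 (SE 0.08, 95% interval -0.25 to 0.12). Faap100, the third subunit of this part of the complex, was at 52.3, 57.6 and 54.5 CPM on control diet and 45.1, 43.9 and 48.8 CPM on ethanol. All its ethanol libraries lay below all controls, on counts and in TPM, and the log2 fold change was -0.26 (SE 0.07, edgeR adjusted p = 0.187).

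Fancb (Gene ID 237211; X chromosome, 164980480 to 164997272 on mm10), the only X-linked member, was detected with 21, 19 and 18 reads in control libraries 1, 2 and 3 and with 26, 27 and 34 reads in the ethanol libraries. Scaled, it was at 0.449, 0.428 and 0.423 CPM on control diet and 0.655, 0.617 and 0.828 CPM on ethanol. Each ethanol library lay above each control, in CPM and in TPM. The log2 fold change was 0.69 (SE 0.29, 95% interval 0.05 to 1.32, edgeR adjusted p = 0.336). Counting error alone is wide at this depth: a single library's 21 reads carry an exact Poisson interval of 13.0 to 32.1, and the sums of 58 and 87 reads carry intervals of 44.0 to 75.0 and 69.7 to 107.3, which cover counting error only. Without ethanol library 3 the log2 fold change was 0.54 (edgeR adjusted p = 0.525), and it no longer reached an unadjusted p under 0.05; nor did it with DESeq2, with the replicate block, or without any 1 of the controls or ethanol library 1. The Fancl to Fancb ratio was 75.8 ± 6.93 by TPM in controls and 45.6 ± 9.66 with ethanol (exact permutation p = 0.1, adjusted 0.5).

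Fancb lies head to head with Mospd2 on the opposite strand. Between GENCODE starts, used for all distances here, they are 217 bases apart, and the RefSeq span of Fancb given above begins 105 bases from Mospd2, so that the sequence printed above for Fancb reaches past the start of Mospd2. Mospd2 was also higher with ethanol, at 5.54, 5.84 and 4.96 CPM on control diet and 6.14, 7.77 and 7.33 CPM on ethanol, without overlap (log2 fold change 0.38, SE 0.13, edgeR adjusted p = 0.247). The exons of both genes share 0 bases in GENCODE. Of the 1031 tested X-linked genes 64.5% had a log2 fold change above 0, with a median of 0.08, against 51.0% of 23747 autosomal genes, with a median of 0.0047. Of X-linked genes 15.3% were higher at an unadjusted p under 0.05, against 7.15% of autosomal genes. The part of that shift in the value of Fancb was not tested.

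**Figure D2:**
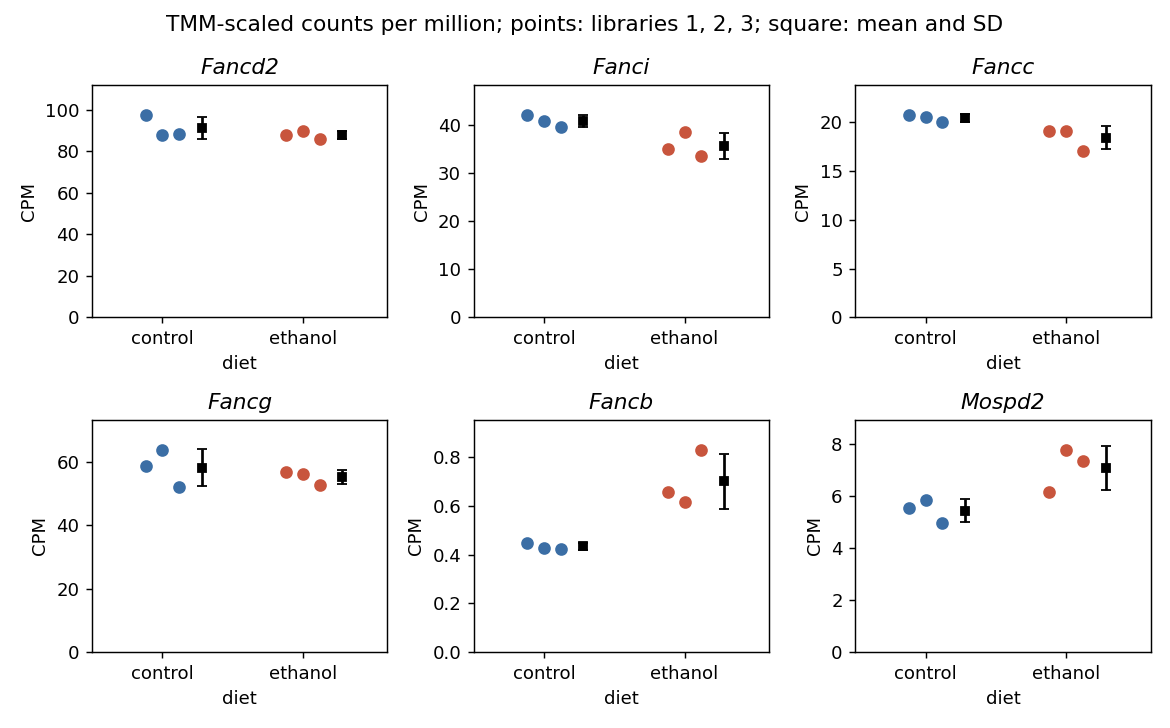
TMM-scaled counts (CPM) of Fancd2, Fanci, Fancc, Fancg, Fancb and Mospd2 by diet, with 1 point for each of the 3 libraries and a square with its bar for the mean and SD; each axis starts at 0. Fanci and Fancc lie lower with ethanol and Fancb and its neighbour Mospd2 higher, each without overlap, while Fancd2 and Fancg overlap.

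Fancc (Gene ID 14088; 63301334 to 63497292 of mm10 chromosome 13), which bridges the core complex and the ID2 pair together with Fance and Fancf, was at 20.7, 20.5 and 19.97 CPM on control diet and 19.1, 19.0 and 17.0 CPM on ethanol. All ethanol libraries lay below all controls, library 3 by the most, and the log2 fold change was -0.15 (SE 0.08, 95% interval -0.33 to 0.03, edgeR adjusted p = 0.466). In TPM the diets overlapped, at 12.1 ± 1.01 in controls and 11.0 ± 1.16 with ethanol. Fance, which contacts Fancd2, was at 2.81 to 3.996 CPM over the 6 libraries with a log2 fold change of -0.08 (SE 0.17). Fancf, an adaptor encoded by a single exon, had 27 to 57 reads per library and a log2 fold change of -0.10 (SE 0.28, 95% interval -0.72 to 0.52), an interval that covers both directions. Fancf was highest in control library 1 and lowest in control library 2, and its sign turned without control library 1 (0.11). The Fancc to Fance ratio by TPM was 3.64 ± 0.59 in controls and 3.33 ± 0.71 with ethanol (exact permutation p = 0.6), and that of Fancc to Fancf 12.6 ± 4.75 and 10.9 ± 1.74 (exact permutation p = 0.8).

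The ID2 partners parted by diet on counts. Fancd2 (Gene ID 211651), at 113531640 to 113597020 of mm10 chromosome 6, was at 97.3, 87.7 and 88.4 CPM on control diet and 88.0, 89.8 and 85.9 CPM on ethanol, so that the diets overlapped (log2 fold change -0.05, SE 0.06, 95% interval -0.19 to 0.09, edgeR adjusted p = 0.776). Fanci (Gene ID 208836), at 79392312 to 79450266 of mm10 chromosome 7, was at 42.0, 40.7 and 39.6 CPM on control diet and 34.9, 38.5 and 33.4 CPM on ethanol. The ethanol libraries were all lower, library 2 by the least. The log2 fold change was -0.19 (SE 0.07, 95% interval -0.36 to -0.03, edgeR adjusted p = 0.294). In TPM, Fanci stood at 16.9, 17.6 and 15.4 in controls and 15.6, 16.4 and 13.4 with ethanol, so that ethanol libraries 1 and 2 lay within the control range, and log2(TPM + 1) gave -0.13 (limma, not past an unadjusted p of 0.05). Without ethanol library 2 the log2 fold change was -0.26 (edgeR adjusted p = 0.399). It missed an unadjusted p of 0.05 without control library 1 (-0.18), ethanol library 1 (-0.18) or ethanol library 3 (-0.16, adjusted p = 0.439).

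A ratio within a library does not depend on how libraries are scaled. The count ratio of Fancd2 to Fanci was 2.32, 2.15 and 2.23 in controls and 2.52, 2.33 and 2.57 with ethanol, higher in each ethanol library than in each control (exact two-sided permutation test, n = 3 per diet, p = 0.1, the smallest possible, 0.167 adjusted over 5 pairs). By TPM, per length, it was 1.98 ± 0.12 and 2.17 ± 0.11 and overlapped (exact permutation p = 0.2, adjusted 0.5). The implied length of Fancd2 varied by 5.29% between libraries and that of Fanci by 0.62%.

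**Figure D3:**
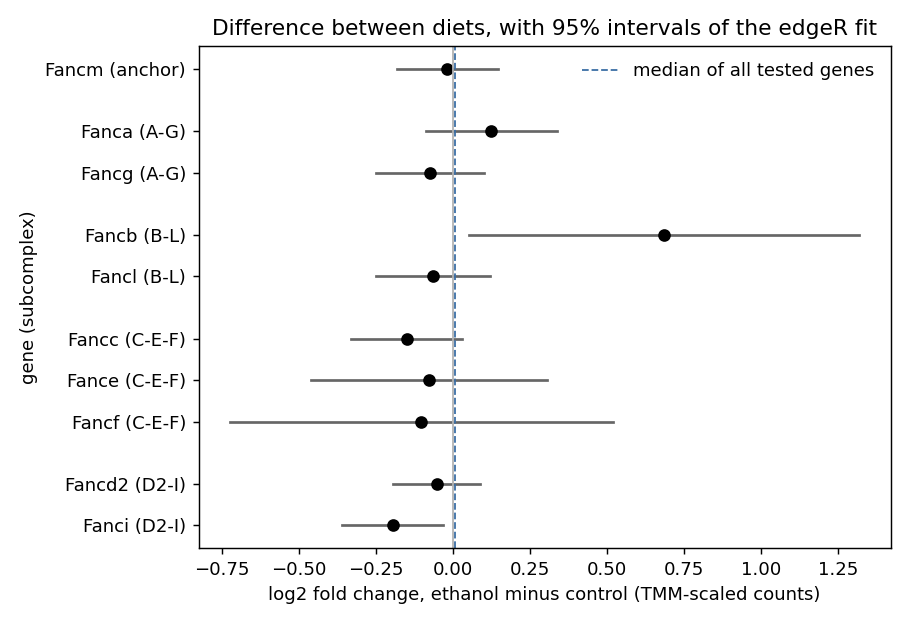
Log2 fold change of each FA gene, ethanol minus control, as a point with its 95% interval, grouped by subcomplex; the dashed line is the median of all tested genes at 0.0065. Only the intervals of Fancb (0.05 to 1.32) and Fanci (-0.36 to -0.03) leave out 0, and neither passes after adjustment over all genes.

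Reads of overlapping genes limit some of these values, since no source used here gives the strand setting of the counting. Genes on the opposite strand share 18.6% of the exon bases of Fancc, 15.9% of those of Fanci, 15.0% of those of Fancf, 13.7% of those of Fancl and 10.5% of those of Fanca in GENCODE M21, and 0% of those of Fancb and Fancg. The tail of Fanci overlaps Polg, the mitochondrial DNA polymerase, which was at 151.2 ± 3.42 CPM on control diet and 139.7 ± 11.4 CPM on ethanol (log2 fold change -0.11, SE 0.07). Of the bases shared by Fancc, 1373 lie in the antisense gene Gm16133, for which no value is used here, and 185 in the aminopeptidase gene Aopep. Aopep was at 45.5 ± 0.67 and 42.8 ± 1.24 CPM, lower in each ethanol library (log2 fold change -0.09, SE 0.06). Fanca overlaps Zfp276, lower in each ethanol library (-0.13, SE 0.09), and Fancl overlaps Vrk2 (-0.07, SE 0.09). Fancf starts 252 bases from Gas2 on the other strand and shares 253 exon bases with it (-0.07, SE 0.10). Gm16907, on the same strand, overlaps the GENCODE span of Fancc but shares 0 exon bases with it, and stood at -0.22 (SE 0.17). What reads of these genes add to the FA values was not tested.

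Fancd2 has neighbours at both ends. Emc3, a subunit of a membrane protein insertase, starts on the other strand, 30 bases from the GENCODE start of Fancd2 and 12 bases inside its RefSeq span, and was at 59.5 ± 4.04 CPM on control diet and 58.3 ± 5.16 CPM on ethanol. Fancd2os, which shares 257 exon bases at its far end, was at 58.5 ± 6.86 and 48.5 ± 3.55 CPM, lower in each ethanol library (log2 fold change -0.27, SE 0.09, edgeR adjusted p = 0.238). Fkbp3, which starts 1596 bases from the GENCODE start of Fancm and 103 bases from its RefSeq start, was at 11.6 ± 0.11 and 14.0 ± 0.52 CPM, higher in each ethanol library, while Fancm itself overlapped.

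The partners of the core complex and the enzymes that add and remove its ubiquitin mark lay mostly below 0. Of 13 genes, 10 were below 0, the median log2 fold change was -0.05, and 0 passed after adjustment. Among all tested genes 5.89% were lower at an unadjusted p under 0.05. In this list 2 were lower and 0 higher, or 15.4% against 13.3% of all tested genes in either direction. These 2 were Faap100, given above, and Usp1, the protease that strips ubiquitin from Fancd2. Usp1 was at 527.0 ± 15.4 CPM on control diet and 481.5 ± 26.4 CPM on ethanol (log2 fold change -0.13, SE 0.06, edgeR adjusted p = 0.374). Wdr48, its obligate activator, was at 429.4 ± 4.58 and 397.6 ± 8.17 CPM (-0.11, SE 0.05, edgeR adjusted p = 0.394). Both lay lower in each ethanol library on counts, and both overlapped in TPM. Ube2t, the ubiquitin-conjugating enzyme that works with Fancl, was at 41.5 ± 2.71 and 39.0 ± 5.17 CPM (-0.09, SE 0.10), and Ube2w at 58.0 ± 4.68 and 61.9 ± 1.69 CPM. By TPM, Usp1 at 276.5 ± 12.8 and Wdr48 at 209.8 ± 12.4 in controls stood above every FA gene.

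Genes that act after the ID2 clamp had values on both sides of 0. Among 11 genes of incision and unhooking, 1 was higher and 1 lower at an unadjusted p under 0.05, a share of 18.2% near the 13.3% of all tested genes, with a median of -0.05. The nuclease Ercc5 was at 26.7 ± 3.26 CPM on control diet and 32.4 ± 1.81 CPM on ethanol (log2 fold change 0.28, SE 0.10, edgeR adjusted p = 0.242). Ercc4, the nuclease that unhooks the crosslink, was at 54.7 ± 2.12 and 49.3 ± 0.48 CPM (-0.15, SE 0.06, adjusted p = 0.34). Slx1b stood at 0.25 (SE 0.14) and Eme2 at -0.22 (SE 0.13), while the scaffold Slx4 was at 0.0053. Of all tested genes 5.89% were lower and 7.45% higher at an unadjusted p under 0.05. Among 11 translesion genes, with a median of -0.0057, 2 were lower and 0 higher, or 18.2% against 13.3% in either direction. They were the helicase Helq at -0.25 (SE 0.10) and the polymerase Poli at -0.18 (SE 0.07), both without overlap on counts and with overlap in TPM. Mad2l2, a subunit of the crosslink polymerase, stood at -0.13 (SE 0.06) and its catalytic partner Rev3l at 0.12 (SE 0.07).

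Among genes of homologous recombination, the helicase Brip1 was at 16.1 ± 0.26 CPM on control diet and 17.9 ± 0.77 CPM on ethanol, higher in each ethanol library (log2 fold change 0.15, SE 0.08, edgeR adjusted p = 0.465). Rad51b stood at 0.18 (SE 0.11), Rfwd3 at 0.10 (SE 0.06) and Brca1 at -0.08 (SE 0.07). Of 15 checkpoint genes 0 reached an unadjusted p under 0.05, against 13.3% of all tested genes, with a median of -0.04. Clspn, an adaptor of the checkpoint, stood at 0.14 (SE 0.10), Hus1b at -0.20 (SE 0.15), Rpa2 at -0.09 (SE 0.08) and Rad17 at -0.06 (SE 0.06), and the kinase Atr that starts FA signalling stood at -0.01 (SE 0.06).

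Of the 14 genes of the DNA damage response on meiotic sex chromosomes, 1 was lower and 0 higher at an unadjusted p under 0.05, or 7.14% against 13.3% of all tested genes. That gene was H2afx, which encodes the histone variant H2AX that Atr phosphorylates there. It was at 127.0, 135.0 and 203.8 CPM on control diet and 82.3, 77.7 and 125.4 CPM on ethanol (log2 fold change -0.71, SE 0.19, edgeR adjusted p = 0.179). Its spread within a diet was large, with library 3 the highest in both, and all ethanol libraries lay below all controls. Hormad1 stood at -0.10 (SE 0.08) and Scml2 at 0.12 (SE 0.10).

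The list of aldehyde clearance, the protection that acts ahead of the FA pathway, lay on the higher side. It also counts Adh1 (log2 fold change 0.45, SE 0.26) and Cat (0.07, SE 0.13), which can oxidise ethanol to acetaldehyde. Adh1 was at 7.22, 7.06 and 7.62 CPM on control diet and 11.8, 13.0 and 4.97 CPM on ethanol. Ethanol library 3 was thus its lowest library, and the diets overlapped. Cyp2e1, on the list too, did not pass the filter. Of 10 tested genes 9 were above 0, Adh1 and Cat among them, with a median of 0.15. At an unadjusted p under 0.05, 3 were higher and 1 lower, against 13.3% of all tested genes in either direction, and 0 passed after adjustment. Aldh2, the mitochondrial enzyme that oxidises acetaldehyde, was at 65.2, 72.6 and 73.7 CPM on control diet and 92.9, 81.0 and 87.8 CPM on ethanol, without overlap (log2 fold change 0.31, SE 0.07, edgeR adjusted p = 0.153). Adh5, which clears formaldehyde, was at 25.2 ± 1.97 and 29.5 ± 0.54 CPM (0.23, SE 0.08), and Aldh1a1 at 225.7 ± 6.56 and 265.2 ± 29.7 CPM (0.23, SE 0.08). Aldh1a2, an enzyme of retinoic acid synthesis, was at 83.6 ± 3.19 and 74.3 ± 0.65 CPM (-0.17, SE 0.06). Markers of several somatic cells also stood higher with ethanol, with median log2 fold changes of 0.22 for Sertoli cells (12 of 14 above 0), 0.66 for red cells (5 of 6) and 1.02 for adipose tissue (5 of 6). Leydig cell markers did not, with 4 of 9 above 0 and a median of -0.04. The part of these cell types in the aldehyde clearance values was not tested.

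**Figure D4:**
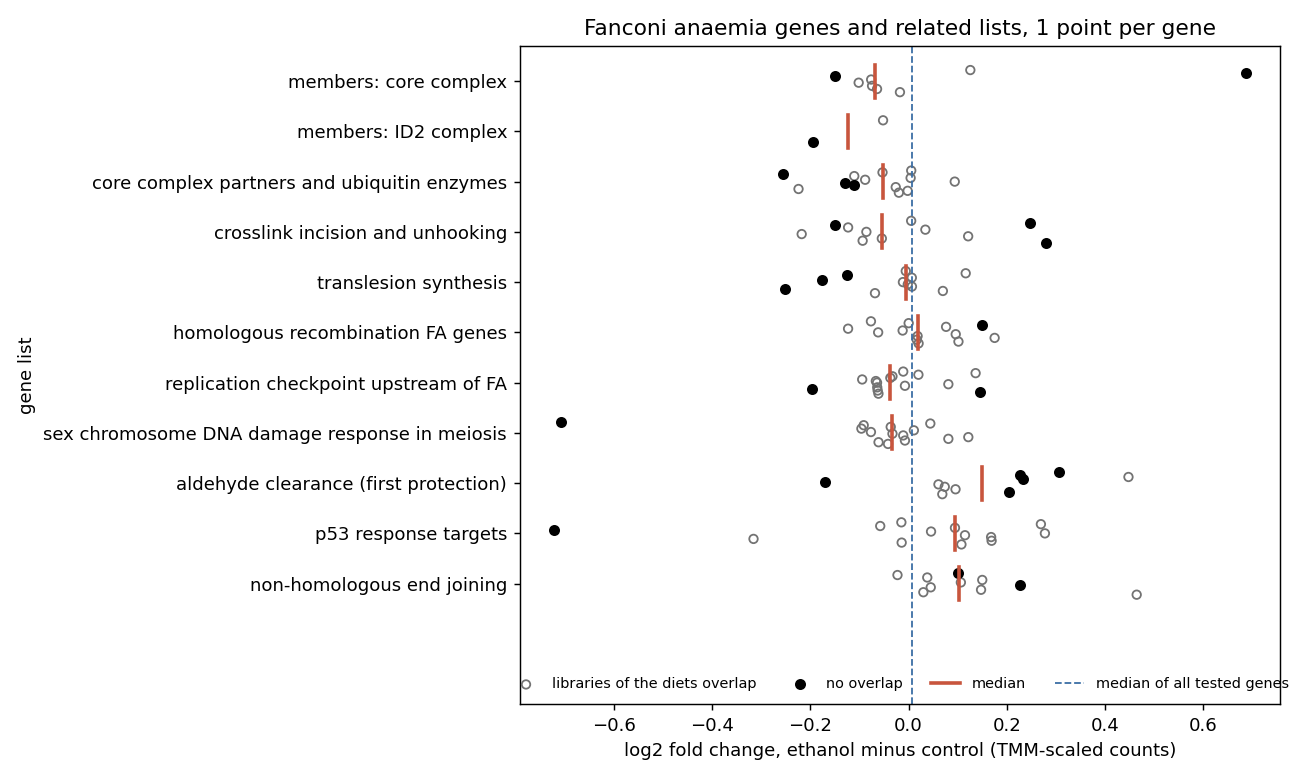
Log2 fold change, ethanol minus control, of each tested gene in the FA lists and the lists around them, with filled points where the libraries of the diets do not overlap, a red bar at each list's median and a dashed line at the median of all tested genes (0.0065). List medians run from -0.12 for the 2 ID2 genes to 0.15 for aldehyde clearance, and most points are open.

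Markers of several, but not all, cell types of the tissue differed between the diets, and these values were not tested as lists. Spermatocyte markers had 11 of 14 members below 0, a median log2 fold change of -0.10 and 7 without overlap, all lower, where 9.01% of all tested genes were lower without overlap. Their summed level, 3075 to 3225 CPM on control diet and 2913 to 3140 CPM on ethanol, overlapped. Round spermatid markers had 9 of 10 below 0, a median of -0.13 and 4 without overlap, all lower. Their sums were 1886 to 2144 and 1834 to 1981 CPM. Sertoli cell markers had 12 of 14 above 0, a median of 0.22 and 8 without overlap, all higher. Of all tested genes 9.76% were higher without overlap. The Sertoli sums were 899 to 965 and 1045 to 1183 CPM. Macrophage markers had 7 of 8 above 0 and a median of 0.23, with 2 higher and 1 lower without overlap. The medians farthest from 0 were those of adipose and red cell markers. Red cell markers had 5 of 6 above 0, all 5 without overlap, against 9.76% of all tested genes higher without overlap. Their sums were 28.6 to 44.7 and 56.8 to 69.5 CPM. Adipose markers had 5 of 6 above 0 and 0 without overlap, with sums of 12.4 to 20.3 and 18.1 to 40.1 CPM. Elongating spermatid markers had 5 of 10 above 0, a median of -0.0055 and 1 higher without overlap. Their sums were 15848 to 18257 and 15852 to 18874 CPM. Leydig cell markers had 4 of 9 above 0 and a median of -0.04, with 2 higher and 2 lower without overlap. Their sums were 671 to 702 and 583 to 727 CPM. Spermatogonial markers had 8 of 10 above 0, a median of 0.13 and 1 lower without overlap. The part of these shifts in the values of Fanci, Fancc and Fancb was not tested.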

How the data were processed

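Total RNA of mouse testis was sequenced with a stranded kit after ribosomal RNA removal, per the labels' protocols. The submitters' processing notes name HISAT2 and the mm10 build. How reads were counted, with which strand setting and annotation, is not given in the sources used here. Read counts per gene were deposited without normalization, and FPKM and TPM were computed by the authors, per the file headers. Every row named a gene, 0 sample columns lay outside the 6 libraries, and no library pair of the 15 agreed within sampling noise (chi-square per gene at least 7.18). Counts were tested with edgeR 4.0.16 in R 4.3.3 (filterByExpr, TMM, quasi-likelihood F-test, no covariate, Benjamini-Hochberg over 25073 genes; common dispersion 0.0104) and checked on simulated data. Each standard error is the size of the fold change over the root of its F value. CPM are TMM-scaled. Totals and ratios had exact permutation tests (two-sided). The members and lists were chosen with earlier results of these data known. Named were all members, the 4 genes of smallest p in each list, genes overlapping a member or starting within 2 kb of its start, and the 3 genes of most similar profile. Faap20, Faap24, Cenps, Cenpx, Ube2t, Slx4, Atr, Adh1, Cat and Cyp2e1 were named after their values were seen. H2ax was matched as H2afx. The summary of the homologous recombination list is not reported here. Alternatives were other scalings, filters, DESeq2 1.42.0, limma 3.58.1 (voom, and log2 of TPM or FPKM plus 1 or 0.1), the replicate block and each library left out. Promoter windows are RefSeq's, exons GENCODE M21's.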

Additional observations from a re-analysis of the deposited data

How the results depend on the processing

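Across 18 alternatives, 0 members passed an adjusted p of 0.05 in any of them, and none passed at a threshold of 0.1 either. The count of 2 members at an unadjusted p under 0.05 was 1 with DESeq2, with a filter of 1 CPM (which removed Fancb and Fancf), with the replicate block and on each log2 scale of FPKM and TPM, and ranged from 0 to 2 with 1 library left out; it was 0 without control library 1, ethanol library 1 or ethanol library 3. The members' median log2 fold change of -0.07 was -0.0069 on log2(TPM + 1) and -0.0054 on log2(TPM + 0.1), where the median of all genes was 0.044 and 0.058. Members without overlap numbered 3 on each other scaling of counts and in FPKM, and 1, Fancb, in TPM. Of all tested genes 18.8% lay without overlap on TMM-scaled counts and 16.1% in TPM. Of 105 pathway genes tested, 13 had an unadjusted p under 0.05, or 12.4% against 13.3% of all tested genes. They became 8 on log2(FPKM + 1), 5 on both TPM scales and 8 to 13 with 1 library left out. The share of all tested genes became 12.2%, 10.3% and 10.2%, and 9.27% to 14.3% in these settings. Single members kept their sign in 171 of 178 fits. Fancm turned to 0.0084 with total counts alone, 0.0069 on log2(TPM + 1) and 0.0078 on log2(TPM + 0.1), and Fancf to 0.0029 on log2(TPM + 0.1). With 1 library left out Fance ran from -0.23 to 0.038 (0.0027 without control library 3, 0.038 without ethanol library 2) and Fancf from -0.34 to 0.11. The causes were not tested. Deviations of same-numbered libraries correlated at -0.041, 0.0016 and 0.095, and those of differently numbered ones at -0.11 to 0.11. With 3 libraries per diet these values cannot tell whether the numbers pair libraries. Over all genes the replicate block called 15 genes. Depth limits Fancb and Fancf most.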

Other observations

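The text above does not describe the response to DNA damage and the other route of break repair. The list of the p53 response holds 13 genes, its targets and Trp53 itself. Of these 0 were higher and 1 lower at an unadjusted p under 0.05 by edgeR, or 7.69% against 13.3% of all tested genes. Their median log2 fold change was 0.09. The lower gene was Bbc3, a BH3-only promoter of cell death, at 1.14 ± 0.40 CPM on control diet and 0.695 ± 0.146 CPM on ethanol (SD, n = 3; log2 fold change -0.72, SE 0.30, edgeR adjusted p = 0.328). Cdkn1a, which halts the cell cycle, stood at 0.27 (SE 0.19), Trp53inp1 at 0.17 (SE 0.09) and Aen at 0.11 (SE 0.09). Of 10 genes of non-homologous end joining 9 were above 0, with a median of 0.10, where 48.5% of all tested genes were below 0. At an unadjusted p under 0.05, 1 was higher and 0 lower, or 10% against 13.3% of all tested genes in either direction. That gene was Dclre1c, the nuclease Artemis, at 18.9 ± 1.74 and 22.05 ± 1.24 CPM (0.23, SE 0.09, edgeR adjusted p = 0.32), Lig4 stood at 0.15 (SE 0.09), Polm at 0.46 (SE 0.33), and Xrcc4 was higher in each ethanol library, at 44.7 ± 0.77 and 47.9 ± 1.30 CPM.

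The genes whose profile over the 6 libraries was most like the mean profile of the FA genes, by root mean square difference of centred log2 CPM over 13222 genes whose mean reached 5 CPM, were Gm10819 (0.0101), Fam149b (0.0107) and Utp18 (0.0131). Their log2 fold changes were 0.02, 0.01 and 0.01. The mean profile itself ran from -0.08 in control library 2 to 0.06 in control library 1, and the ethanol libraries lay between. It leans on Fancf, which has few reads and stood at 0.43 and -0.56 in control libraries 1 and 2. The members' median profile differed from it, with -0.06 in ethanol library 3 against a mean of 0.0075, so that likeness to the mean profile is not likeness to most members.

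Cyp2e1, the ethanol-inducible oxidase that makes acetaldehyde, did not pass the filter, with 0, 0 and 6 reads in control libraries 1, 2 and 3 and 119, 33 and 7 reads in the ethanol libraries.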
